A study of Mus musculus with 12 samples.

Results

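The early growth response factors Egr1, Egr2, Egr3 and Egr4, their corepressors Nab1 and Nab2, the serum response factor gene Srf, and the immediate-early genes Arc and Myc were followed in RNA sequencing of perfused mouse hearts. The rule was a match of the gene name, which found 9 rows of the 52858 genes listed, and every one of the 9 passed the filter on low values. Hearts of male C57BL/6J mice and of Slit2-Tg mice, which carry a Slit2 transgene on that background, were excised at 3 to 5 months of age and perfused by the Langendorff method, in which buffer is driven backward through the aorta of an isolated heart. After 20 min of equilibration, the C57-IR and Slit2-IR hearts went through 20 min of global ischemia without flow and 40 min of reperfusion (ischemia-reperfusion, IR), while the C57-non-IR and Slit2-non-IR hearts were perfused for 80 min in all, with 3 hearts in each group. The comparison of IR with non-IR asks what ischemia adds to a heart that has already been removed and perfused, since all 4 groups share the excision and the perfusion. The transgene is a human Slit2 cDNA under the CMV promoter, which is not specific to a tissue, made by injection into C57 × CBA F1 oocytes.

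EGR proteins are zinc finger transcription factors that are made within minutes of a growth factor, stress or calcium signal and bind GC-rich sites in the promoters of growth, clotting and inflammatory genes. NAB1 and NAB2 bind EGR1, EGR2 and EGR3 and restrain their activity, and Nab2 is itself known as an EGR target. SRF binds CArG boxes with ternary complex factors downstream of ERK or with myocardin-related factors downstream of actin, and thereby switches on Egr and Fos genes as well as contractile genes. Arc, best known at synapses, and Myc, a bHLH factor that drives growth and ribosome production, belong to the same rapid class.

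In the mm10 coordinates of the files, Egr1 lies at chr18:34859823-34864984 on the plus strand, Egr2 at chr10:67535475-67542188 (plus), Egr3 at chr14:70077203-70082614 (plus) and Egr4 at chr6:85511121-85513589 (minus). Nab1 is at chr1:52457294-52500679 (minus), Nab2 at chr10:127660918-127668568 (minus), Srf at chr17:46546839-46556162 (minus), Arc at chr15:74669083-74672570 (minus) and Myc at chr15:61985391-61990374 (plus). All 9 are listed as protein-coding. In GENCODE vM21, Nab2 overlaps Stat6, Gm16229 and Nemp1 on the opposite strand and Srf overlaps Gm26904 on the opposite strand and Mir6976 on its own. Whether the counting used strand is not given in the sources used here, so reads in those shared stretches cannot be assigned with certainty.

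Depth was 16601154 to 24841291 reads on genes per library, as recovered from the deposited FPKM (fragments scaled to gene length and to a library size), and the labels describe the 3 samples of a group as independent. The library size in the FPKM was not the total of reads on genes, and how it was set is not given in the sources used here. Reads listed for mouse Slit2 do not check the genotype labels in full because the transgene is human, and its FPKM was 0.180, 0.222 and 0.184 in C57-non-IR and 0.182, 0.184 and 0.169 in Slit2-non-IR hearts. After IR it was 0.282, 0.235 and 0.213 in C57-IR and 0.153, 0.813 and 0.0847 in Slit2-IR hearts. The genotypes overlap both without and after IR. The study itself reports higher Slit2 mRNA and protein in Slit2-Tg hearts, measured by PCR and Western blot. The summed FPKM of 10 ventricular cardiomyocyte markers was 24408 to 32659.6 in every library. That of 8 atrial markers was 1847 in Slit2-IR replicate 1 and 38.1 to 262 in the other 11. The IR calls of the genes followed here are therefore also given without that library. For the genotype comparisons and the interaction, it is covered only as part of leaving out each library in turn. The permutation tests, the results of the gene lists and the correlations are given only with it. Since whole tissue was sequenced, fewer cells of a type and less RNA per cell cannot be told apart.

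Promoter windows from RefSeq (GRCm38.p6) were held for 5 of the 9 genes, Egr2, Egr4, Nab1, Nab2 and Srf. The bases just upstream of a start site can hold elements through which SRF and cAMP-responsive factors are known to act. Shown are the windows with the longest stretches free of annotated exons, 250 bases for Egr2 and Egr4 and 237 for Srf. That stretch was 190 bases for Nab2 and 19 for Nab1, which are not shown. Capitals mark matches, on either strand, to the CArG box, which SRF binds, to the EGR site GCGNGGGCG, to the core of the cAMP response element TGACG, to the ETS factor site CCGGAA, to the TATA box TATAAA and to the E-box CACGTG that MYC binds. Each run is written 5′ to 3′ on the strand of the gene and holds no annotated exon base. None of the matches overlap each other.
Egr2, chr10:67537619-67537868, plus strand: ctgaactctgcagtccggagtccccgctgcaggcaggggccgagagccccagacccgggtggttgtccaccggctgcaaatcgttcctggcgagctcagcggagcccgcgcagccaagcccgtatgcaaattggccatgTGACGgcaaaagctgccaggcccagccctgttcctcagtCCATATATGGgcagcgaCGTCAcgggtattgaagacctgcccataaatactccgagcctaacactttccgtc
Egr4, chr6:85513590-85513839, minus strand: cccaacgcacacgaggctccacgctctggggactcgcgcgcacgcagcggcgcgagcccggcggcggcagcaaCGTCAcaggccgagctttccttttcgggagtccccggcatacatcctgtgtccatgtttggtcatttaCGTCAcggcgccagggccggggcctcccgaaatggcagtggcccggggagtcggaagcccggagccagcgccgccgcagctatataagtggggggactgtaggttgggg
Srf, chr17:46556176-46556412, minus strand: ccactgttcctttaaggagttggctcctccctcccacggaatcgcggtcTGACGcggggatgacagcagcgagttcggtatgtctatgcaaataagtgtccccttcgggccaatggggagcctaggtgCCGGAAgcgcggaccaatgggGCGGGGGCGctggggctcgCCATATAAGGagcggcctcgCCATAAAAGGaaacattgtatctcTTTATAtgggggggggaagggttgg

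The Srf window held 2 CArG boxes, CCATATAAGG starting 82 bases and CCATAAAAGG starting 62 bases upstream of the RefSeq start site, beside 1 match each to the EGR site, the cAMP response core, the ETS factor site and the TATA box. The Egr2 window shown is the one of 5 in RefSeq whose start site coincides with that of a principal transcript in GENCODE vM21. It held 1 CArG box, CCATATATGG, starting 72 bases upstream, and 2 TGACG matches at 111 and 55 bases. Of the other 4 windows, 3 held a CArG box, 2 of them also TGACG and 1 of them 3 CCGGAA matches, and the one at the start of the gene held only a CACGTG match. The 2 with TGACG start at chr10:67537620 and chr10:67537680 and overlap the window shown, so they count the same sites again. Egr4 had 2 TGACG matches, at 177 and 109 bases, and no CArG box in these 250 bases. Among 32851 promoter windows of the same length, 1.47% held a CArG box, 4.70% GCGNGGGCG, 17.8% TGACG, 12% CCGGAA, 12.4% TATAAA and 6.02% CACGTG. Nab1, not shown because its window is annotated as exon over most of its length, had 3 GCGNGGGCG matches and 1 TGACG match, and Nab2 had no match to any of the 6. A match says only that the letters are present.

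Of the 9 genes, Egr1 had the highest level per length, with a mean of 218 FPKM over the 12 libraries, above 98.6% of the 15240 genes tested. Srf followed at 35.1, then Egr3 at 20.9, Egr2 at 15.3, Arc at 13.2, Myc at 11.3, Nab1 at 7.90, Nab2 at 3.29 and Egr4 at 0.230. That order pools hearts with and without IR. In both non-IR groups the means ran from Egr1 through Srf, Egr3, Egr2, Nab1, Arc, Nab2 and Myc to Egr4. There the neighbours Egr2 and Nab1 overlapped in their ranges, as did Arc, Nab2 and Myc, and Egr3 overlapped Egr2 in the Slit2-Tg hearts, while Srf lay above Egr3 (28.6 to 30.2 against 10.6 to 17.9 FPKM in C57-non-IR hearts) and Nab1 above Arc. In both IR groups Arc and Myc stood above Nab1 instead, and the neighbours among Srf, Egr3, Egr2, Arc and Myc did not differ beyond their spread. Egr1 made up 83.6 to 88.1% of the summed FPKM of the 4 EGR genes in every library, Egr3 5.72 to 10.9%, Egr2 5.11 to 6.77% and Egr4 at most 0.227%. The sum itself went from 76.4 FPKM in the lowest library, Slit2-non-IR replicate 1, to 506 in the highest, Slit2-IR replicate 2, while Egr1 stayed within that share.

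**Figure D1:**
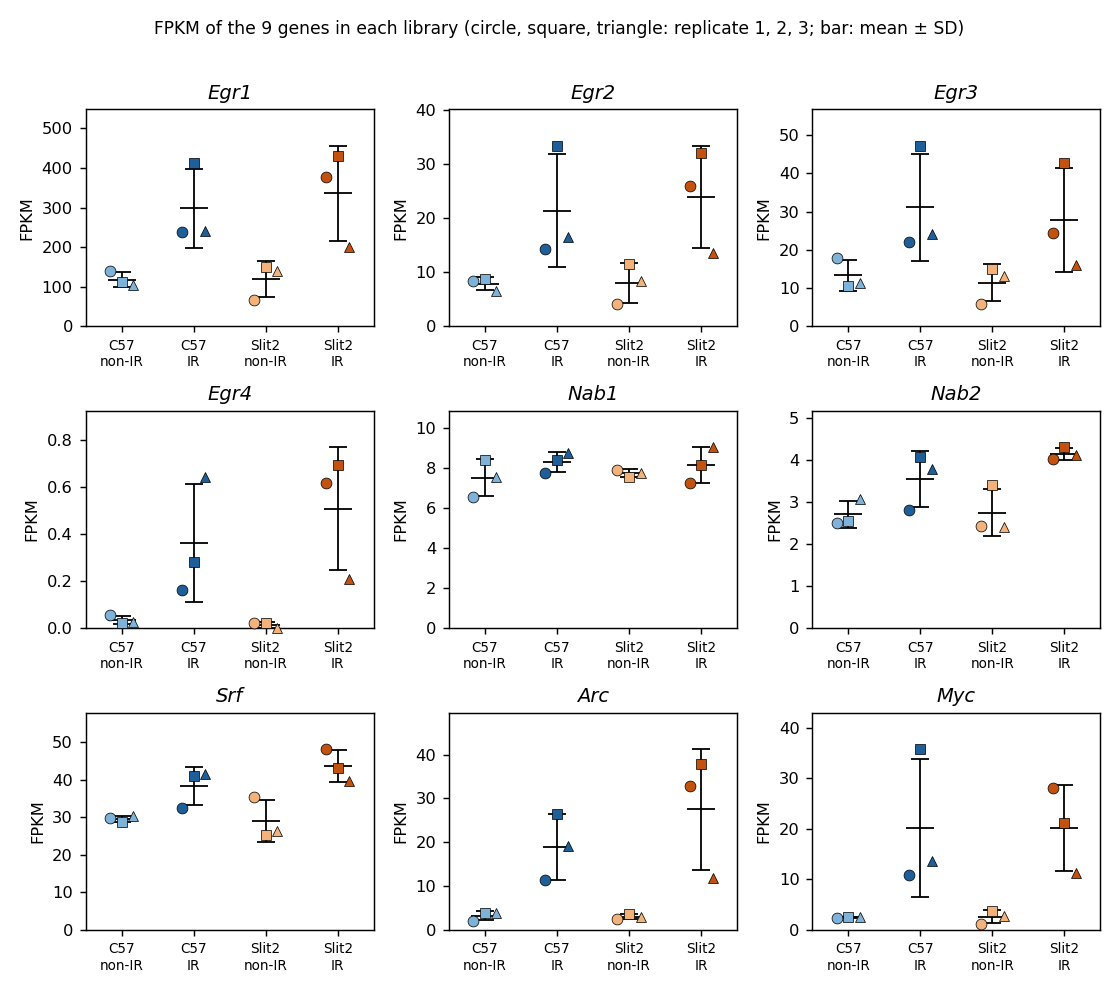
FPKM of each of the 9 genes (vertical axes, linear from 0) in the 12 libraries by group, with the circle, square and triangle for replicates 1, 2 and 3 and the black bars for the mean and SD of 3 hearts. The 3 IR hearts lie above the 3 non-IR hearts in both genotypes for Egr1, Egr2, Egr3, Egr4, Srf, Arc and Myc, whereas the Nab1 groups overlap in both.

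Across both genotypes, Egr1, Egr2, Srf, Arc and Myc, 5 of the 8 genes with more than 10 reads in every library, rose after IR. Egr4 was called as well, but it passed the filter on low values only through the IR hearts, so its call is given as a description. P-values here measure the spread between these hearts. The mean IR effect is the average of the IR minus non-IR differences of the C57BL/6J and Slit2-Tg hearts on the log2(FPKM + 1) scale, tested with limma and called at an adjusted p under 0.05. Of all genes tested, 2.34% were called higher in that comparison. Egr3 and Nab2 lay just outside the threshold and Nab1 far from it. Within a genotype, with 3 hearts against 3, Arc and Myc were the 2 genes called in C57BL/6J hearts, where 0.407% of tested genes were called higher, and again the 2 called in Slit2-Tg hearts, where the share was 0.446%. The groups did not overlap, with every IR heart above every non-IR heart, for 7 of the 9 in C57BL/6J hearts (6.75% of tested genes) and for 8 of the 9 in Slit2-Tg hearts (8.65%), Egr4 being among them in both.

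Egr1, the most abundant factor of the family, measured 139, 111 and 105 FPKM in the C57-non-IR hearts (replicates 1, 2 and 3, the order used throughout) and 239, 413 and 242 in the C57-IR hearts. In Slit2-non-IR hearts it measured 66.4, 149 and 141, and in Slit2-IR hearts 377, 431 and 199.7. Every IR heart was above every non-IR heart of its genotype, and replicate 2 was the highest IR heart of each. Group means were 118 ± 18.0 and 298 ± 99.4 FPKM in C57BL/6J hearts without and with IR (SD, n = 3), and 119 ± 45.4 and 336 ± 121 in Slit2-Tg hearts. These are ratios of 2.52 and 2.83. The mean IR effect was 1.40 on the log2(FPKM + 1) scale (SE 0.25, adjusted p = 0.0116), and it was called without any 1 of the 12 libraries and under every other setting tried. Within a genotype the difference was 1.29 (SE 0.36, adjusted p = 0.186) in C57BL/6J and 1.51 (SE 0.36, adjusted p = 0.0959) in Slit2-Tg hearts, the latter reaching an adjusted p of 0.0491 without Slit2-IR replicate 3.

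Egr2, known for peripheral nerve myelination and for lymphocyte anergy, followed the same hearts as Egr1. It measured 8.43, 8.77 and 6.50 FPKM in C57-non-IR, 14.2, 33.4 and 16.6 in C57-IR, 4.06, 11.5 and 8.35 in Slit2-non-IR, and 25.9, 32.1 and 13.6 in Slit2-IR hearts. Replicate 2 was the highest of each group, and no IR heart fell into the range of its non-IR group. The means rose 2.71 times in C57BL/6J and 2.99 times in Slit2-Tg hearts, and the mean IR effect was 1.37 (SE 0.28, adjusted p = 0.0225). That call was lost without C57-non-IR replicate 1 or 3 or Slit2-IR replicate 1 or 2, with adjusted p of 0.0502 to 0.0614. Within Slit2-Tg hearts the difference of 1.48 (SE 0.39) had an adjusted p of 0.132, and of 0.0476 with replicates blocked by number. The summed FPKM of 9 Schwann cell markers was 23.4 to 29.8 in C57-non-IR, 22.0 to 39.0 in C57-IR, 21.8 to 29.5 in Slit2-non-IR and 30.7 to 31.9 in Slit2-IR hearts, the last 2 not overlapping, and its part in the Egr2 values was not tested.

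Egr3, an EGR factor of lymphocytes and muscle spindles, measured 17.9, 10.6 and 11.4 FPKM in C57-non-IR and 22.0, 47.3 and 24.2 in C57-IR hearts. Slit2-non-IR hearts had 5.96, 15.1 and 13.1 FPKM and Slit2-IR hearts 24.5, 42.8 and 16. The groups were separate in both genotypes by narrow margins, with the lowest IR heart 1.22 times the highest non-IR heart in C57BL/6J and 1.06 times in Slit2-Tg hearts. Its mean IR effect of 1.16 (SE 0.29) had an adjusted p of 0.0570. It passed with replicates blocked by number (adjusted p = 0.0376), by limma-voom on the recovered reads (0.0397), with at least 10 reads required in every library (0.0482) and without C57-IR replicate 1 (0.0477) or Slit2-IR replicate 3 (0.0349).

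Egr4 was near the limit of detection without ischemia and was tested only because of the IR libraries. It was listed at 0.0547, 0.0216 and 0.0269 FPKM in C57-non-IR hearts and at 0.0224, 0.0202 and 0 in Slit2-non-IR hearts, which stand for 4 and 2 reads over 3 libraries. The 0 reads in Slit2-non-IR replicate 3 allow up to 0.0552 FPKM (3 reads). After IR it measured 0.16, 0.283 and 0.642 FPKM in C57-IR hearts and 0.619, 0.696 and 0.209 in Slit2-IR hearts, or 49 and 73 reads. Scaled to the library size in the FPKM, the reads were 11.5 times as many after IR in C57BL/6J hearts (95% exact interval 4.21 to 43.8) and 37.8 times in Slit2-Tg hearts (10.1 to 318), intervals that cover counting error only. On the log2(FPKM + 1) scale the mean IR effect was 0.47 (SE 0.09, adjusted p = 0.0210), a value that understates the change of so low a gene and became 1.98 with a pseudocount of 0.1 (adjusted p = 0.00354). The call was lost on leaving out replicate 2 or 3 of either non-IR group or Slit2-IR replicate 1, at adjusted p of 0.0505 to 0.0550. Its difference within Slit2-Tg hearts, 0.56 (SE 0.13, adjusted p = 0.10), passed without Slit2-IR replicate 3 at an adjusted p of 0.0325, with a pseudocount of 0.1 at 0.0316 and by limma-voom at 0.0432.

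Nab1, the corepressor present before any stimulus, varied little. It measured 6.53, 8.38 and 7.55 FPKM in C57-non-IR, 7.71, 8.38 and 8.74 in C57-IR, 7.89, 7.52 and 7.76 in Slit2-non-IR, and 7.23, 8.11 and 9.02 in Slit2-IR hearts. The ranges overlap in every comparison, and the SD was 2.43 to 12.4% of the mean in each group. The mean IR effect was 0.10 (SE 0.07, 95% interval -0.07 to 0.26, adjusted p = 0.611).

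Nab2, the inducible corepressor, measured 2.5, 2.55 and 3.08 FPKM in C57-non-IR and 2.81, 4.07 and 3.78 in C57-IR hearts, groups that overlap. In Slit2-Tg hearts it measured 2.44, 3.41 and 2.40 without IR and 4.02, 4.31 and 4.12 after IR, with no overlap. The mean IR effect of 0.38 (SE 0.09) had an adjusted p of 0.0559. With replicates blocked by number the adjusted p was 0.0341, by limma-voom 0.0442 and with at least 10 reads in every library 0.0482, and without C57-IR replicate 1 or Slit2-non-IR replicate 2 it was 0.0163 and 0.0331.

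Srf, the factor that switches on many of these genes, varied by an SD of 2.80 to 18.9% of its group means. It measured 29.8, 28.6 and 30.2 FPKM in C57-non-IR and 32.5, 40.9 and 41.5 in C57-IR hearts, and 35.3, 25.4 and 26.3 in Slit2-non-IR and 48.2, 43.2 and 39.7 in Slit2-IR hearts. All IR hearts were above the non-IR hearts of their genotype, by ratios of the means of 1.3 and 1.51. The mean IR effect was 0.47 (SE 0.10, adjusted p = 0.0231), and leaving out 1 library ended the call in 9 of 12 cases. Those were any of the C57-non-IR hearts, replicates 2 and 3 of C57-IR, replicates 2 and 3 of Slit2-non-IR and replicates 1 and 2 of Slit2-IR, with adjusted p of 0.0502 to 0.0659.

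Arc, which encodes a capsid-forming protein that shapes synaptic receptor trafficking in neurons, was called within each genotype, as was Myc. It measured 2.0, 3.71 and 3.78 FPKM in C57-non-IR and 11.3, 26.4 and 19.2 in C57-IR hearts, and 2.40, 3.64 and 2.92 in Slit2-non-IR and 32.8, 37.9 and 11.8 in Slit2-IR hearts. The lowest IR heart had 3.00 times the FPKM of the highest non-IR heart in C57BL/6J and 3.23 times in Slit2-Tg hearts. Ratios of the means were 6.01 and 9.20, and the log2(FPKM + 1) differences 2.22 (SE 0.40, adjusted p = 0.0468) and 2.70 (SE 0.40, adjusted p = 0.0236). The mean IR effect was 2.46 (SE 0.28, adjusted p = 0.00173) and was called in all 20 alternatives. The C57BL/6J call was kept without C57-IR replicate 1 or Slit2-IR replicate 2 or 3 and lost without any 1 of the other 9 libraries, at adjusted p of 0.0535 to 0.207. The Slit2-Tg call was lost without any Slit2-non-IR heart or without Slit2-IR replicate 1 or 2, at adjusted p of 0.0740 to 0.114. The summed FPKM of 12 neuronal markers was 13.2 to 23.5 over the 12 libraries, and its ranges were 20.4 to 23.5 in C57-non-IR, 15.9 to 17.4 in C57-IR, 16.7 to 21.3 in Slit2-non-IR and 13.2 to 23.0 in Slit2-IR hearts, with none of the 12 at 0 throughout. Their part in the Arc values was not tested.

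Myc measured 2.31, 2.57 and 2.49 FPKM in C57-non-IR and 10.9, 35.8 and 13.7 in C57-IR hearts. In Slit2-Tg hearts it measured 1.21, 3.77 and 2.79 without IR and 28.1, 21.1 and 11.3 after IR. The C57-non-IR hearts differed by an SD of 5.44% of their mean and the C57-IR hearts by 67.9% of theirs, while in Slit2-Tg hearts the SD was 49.9% without and 41.9% after IR. Ratios of the means were 8.18 in C57BL/6J and 7.79 in Slit2-Tg hearts. Differences were 2.43 (SE 0.43, adjusted p = 0.0459) and 2.54 (SE 0.43, adjusted p = 0.0379), and the mean IR effect was 2.48 (SE 0.30, adjusted p = 0.00199), called in all 20 alternatives. The C57BL/6J call was kept without C57-IR replicate 1, Slit2-non-IR replicate 1 or Slit2-IR replicate 3 and lost without any other library, at adjusted p of 0.0529 to 0.173. The Slit2-Tg call was kept without C57-IR replicate 1 or 2 or Slit2-IR replicate 3 and lost without any other, at adjusted p of 0.0562 to 0.155.

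An exact permutation test of the mean IR effect, two-sided, with the IR labels exchanged within each genotype, gave p = 0.005 for Egr1, Egr2, Egr3, Srf, Arc and Myc, the smallest that its 400 relabelings allow. The exact p was 0.01 for Nab2 and 0.175 for Nab1. When Slit2-Tg labels were exchanged only between hearts of the same number, an alternative added after the data were seen, the exact p was 0.0125 for the same 6 genes, the smallest that its 160 relabelings allow, 0.025 for Nab2 and 0.1875 for Nab1. Within a genotype, 3 hearts against 3 allow no exact p under 0.1. Without Slit2-IR replicate 1, the library with the atrial markers, 3 of the 9 genes were called for the mean IR effect, namely Egr1, Arc and Myc, and 0 within either genotype. The count for the mean IR effect was also 3 without C57-non-IR replicate 3. Over all genes, leaving out Slit2-IR replicate 1 took the calls from 70 to 36 in C57BL/6J and from 80 to 5 in Slit2-Tg hearts. Leaving out Slit2-non-IR replicate 3 instead gave 19 and 7, so such losses were not particular to the 9 genes or to that library.

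**Figure D2:**
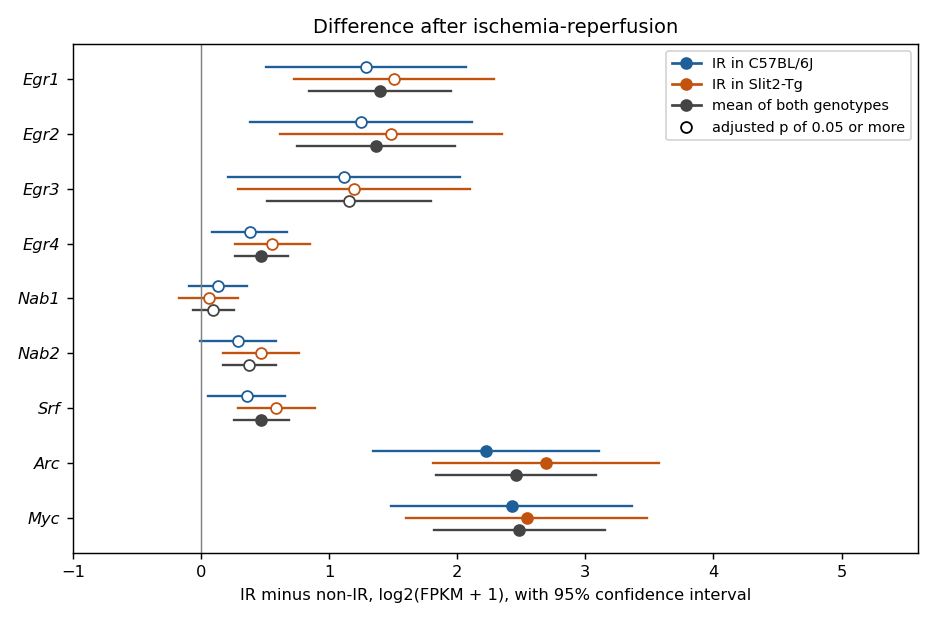
IR minus non-IR difference of each gene on the log2(FPKM + 1) scale (horizontal axis) in C57BL/6J hearts, in Slit2-Tg hearts and averaged over both, with 95% confidence intervals from limma. Filled points have an adjusted p under 0.05; Arc and Myc lie between 2.22 and 2.70 in both genotypes and Nab1 lies between 0.06 and 0.13.

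The hearts of a group differed in level, and the same hearts were high or low for several genes. C57-IR replicate 1 was the lowest of its group for all 9 genes and C57-IR replicate 2 the highest for 6. Among Slit2-IR hearts, replicate 3 was the lowest for 7 genes and replicate 2 the highest for 6, and among Slit2-non-IR hearts replicate 1 was the lowest for 5 and replicate 2 the highest for 6. The C57-non-IR hearts showed no such order, each being the highest for 3. How many of all genes were lowest in the same hearts was not counted. C57-IR replicate 1 also had the lowest endothelial, fibroblast and macrophage marker sums of its group (316, 630 and 200 FPKM). So did Slit2-non-IR replicate 1 (311, 711 and 285), whereas Slit2-IR replicate 3 was not the lowest for endothelial or macrophage markers. The part of these sums in the order was not tested. After subtracting the mean of each group, the deviations of Egr1, Egr2, Egr3, Arc and Myc had Pearson correlations of 0.60 to 0.96 over the 10 pairs (median 0.83, 12 libraries). These 5 genes were picked after their values were seen, and over all 36 pairs of the 9 genes the median was 0.35. Egr1 with Egr2 was the closest pair at 0.96, and Egr4 with Egr1, Egr2 and Egr3 was at 0.34 to 0.35. The 8 pairs with Nab1 ranged from -0.43 to 0.20, and Srf with Egr1 was at -0.18. These are descriptions over libraries that share depth, scaling and dissection, and carry no test.

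**Figure D3:**
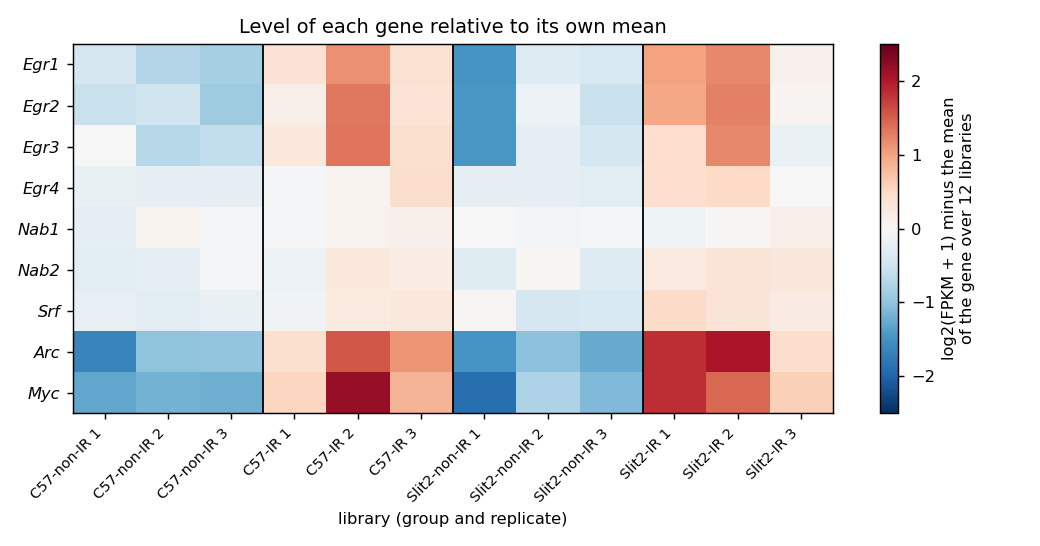
Level of each gene (rows) in each of the 12 libraries (columns, group and replicate) as log2(FPKM + 1) minus the mean of that gene over all libraries, red above and blue below. C57-IR replicate 2 and Slit2-IR replicate 2 are red for Egr1, Egr2, Egr3, Arc and Myc together, and Slit2-non-IR replicate 1 is the bluest for Egr1, Egr2, Egr3 and Myc.

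The transgene was set against the background strain without and after ischemia, which asks whether Slit2 overexpression changes these genes at rest or in their response. None of the 9 genes passed the test in either comparison by limma, and none did at an unadjusted p under 0.05. Of all genes tested, 0.0394% were called in either direction without IR and 0.0459% after IR. The groups overlapped for each of the 9 in both. Without IR the Slit2-Tg minus C57BL/6J differences ran from -0.26 for Egr3 to 0.04 for Nab1. Egr1, at means of 118 and 119 FPKM, differed by -0.07 with a 95% interval of -0.85 to 0.71, so differences of up to about that size were not detectable with 3 hearts a group.

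After IR the differences ran from -0.19 for Egr3 to 0.43 for Arc. The interval was -0.45 to 1.31 for Arc, -0.84 to 1.04 for Myc, -0.63 to 0.93 for Egr1 and -0.11 to 0.49 for Srf. Nab2 had the narrowest Slit2-IR group of the 9 genes in relative terms, with an SD of 3.52% of its mean, and differed from C57-IR by 0.19 (95% interval -0.11 to 0.48). Both comparisons share libraries with the IR comparisons, so their values are not independent of those.

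The interaction, which asks whether IR changed a gene by a different amount in Slit2-Tg than in C57BL/6J hearts, was called for 0 of the 9 by limma, and 0 of the 9 had an unadjusted p under 0.05. Over all genes the share called was 0.0%. An unadjusted p under 0.05 was found for 284 of the 15240 genes, a smaller share than the 0.05 that no interaction at all would give. The estimates were positive for 8 of the 9 and negative for Nab1, from -0.07 (95% interval -0.40 to 0.25) to 0.47 for Arc (-0.77 to 1.72). For Myc the estimate was 0.12 with an interval of -1.21 to 1.45. These intervals are wide for the genes with the largest response, and no difference between the genotypes in the response of these genes was detectable with 3 hearts a group.

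The surrounding pathway was read from lists of related genes. Among 38 other immediate-early genes, 37 were tested, and 21 were called higher and 0 lower for the mean IR effect. Of all genes tested, 2.34% were called higher and 1.15% lower. The median mean IR effect of the list was 1.10, against 0.00 over all genes tested. Nr4a3, an orphan nuclear receptor, went from 0.635 to 0.971 FPKM in C57-non-IR to 14.7 to 37.7 in C57-IR hearts, and from 0.554 to 0.733 to 13.3 to 33.4 in Slit2-Tg hearts (mean IR effect 3.72, SE 0.25, adjusted p = 5.7e-05). Fosl2, an AP-1 subunit, had a mean IR effect of 2.08 (adjusted p = 0.000499), Atf3, a stress-induced repressor, 2.55 (0.000844), Nr4a2 2.0 (0.00151), Dusp5, a nuclear ERK phosphatase, 1.37 (0.00199) and Maff, a small Maf factor, 2.26 (0.00417). The most abundant, Fos, had means of 218 and 473 FPKM in C57BL/6J and 274 and 489.7 in Slit2-Tg hearts and was not called (0.99, adjusted p = 0.0754), whereas Cyr61, a matricellular protein, was (1.21, adjusted p = 0.00702). Npas4 was too low to test.

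Genes known to be regulated by EGR factors were next. Of 24 listed, 23 were tested, 8 rose and 1 fell, and the median was 0.42. Of all tested genes, 2.34% were called higher and 1.15% lower. Il6 rose from 0.121 to 0.420 FPKM in C57-non-IR to 4.51 to 23.5 in C57-IR hearts, and from 0.119 to 0.696 to 10.1 to 13.2 in Slit2-Tg hearts (mean IR effect 3.29, SE 0.31, adjusted p = 0.000499). Thbs1, the matrix protein thrombospondin, rose by 2.78 (adjusted p = 0.00523), Tnf by 2.09 (0.00393), the adhesion molecule Icam1 by 1.70 (0.00491), and the fibrinolysis gene Plau by 1.44 (0.00244). Tnfsf10, a death ligand named here after its value was seen, fell by 0.48 (adjusted p = 0.0184). Vegfa, the most abundant of the list, had means of 58.4 and 75.1 FPKM in C57BL/6J hearts and 63.5 and 86.1 in Slit2-Tg hearts and was not called. Most of those that rose are also targets of other inducible factors, so the list is not specific to EGR proteins. Of the corepressor list, Nab1, Nab2, Zfhx3 and Ddx20 were tested and none was called.

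Lists of upstream and partner genes were counted against 2.34% of all tested genes called higher and 1.15% called lower, shares at which lists this short would often hold no call. None of 9 SRF cofactors (median 0.09) and none of 20 genes of the ERK pathway (median 0.04) passed, and the ERK genes ranged from -0.16 to 0.22. Fhl2, the most abundant SRF cofactor, stood at 586 to 659 FPKM in the 4 group means. Of 25 SRF muscle and cytoskeletal targets, 3 rose, the cytoplasmic actins Actg1 (1.12, adjusted p = 0.00443) and Actb (0.81, adjusted p = 0.0184) and the actin-binding Xirp1 (1.35, adjusted p = 0.0226). The cardiac actin Actc1, with means of 5030 to 6680 FPKM, was not called (0.25, adjusted p = 0.542). None of 17 MYC network partners was called. Max, the dimer partner of MYC, had means of 16.4 and 12 FPKM in C57BL/6J and 15.3 and 11.8 in Slit2-Tg hearts (-0.39, adjusted p = 0.126).

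Of 22 MYC targets, against the same 2.34% of all tested genes, 2 rose, Odc1, the first enzyme of polyamine synthesis (0.80, adjusted p = 0.00608), and Nop58, a core protein of box C/D snoRNPs (0.49, adjusted p = 0.0112), and the median was 0.15. Of 11 genes on the list for Arc partners and plasticity, Arc itself was the 1 called, and the median was 0.14.

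**Figure D4:**
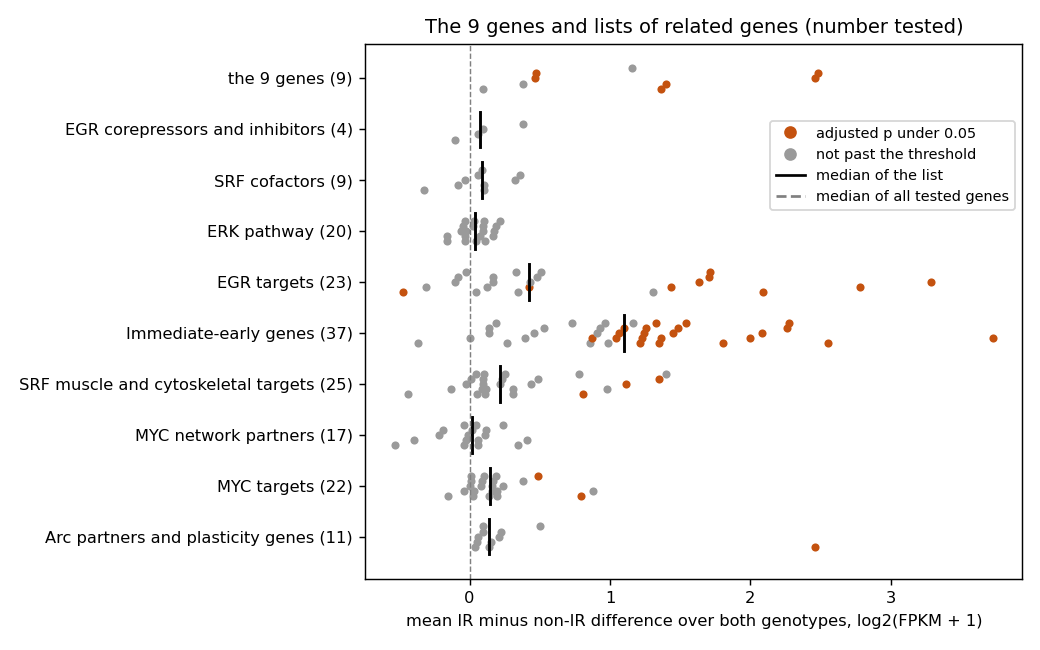
Mean IR effect on the log2(FPKM + 1) scale (horizontal axis) of the 9 genes and of each tested gene of 9 lists, orange where the adjusted p was under 0.05, with a black line at the median of each list and a dashed line at the median of all 15240 genes. The immediate-early list has its median at 1.10 and the ERK list at 0.04.

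The genes whose profile over the 12 libraries was most like that of a member, by Pearson correlation of log2(FPKM + 1) among tested genes outside the 9, were mostly other inducible genes. They were Nr4a1 and Cyr61 for Egr1 (both 0.98), Nfkbiz (0.98) and Nr4a1 (0.97) for Egr2, Ythdc1 and Plk3 for Egr3 (both 0.95), and Sele and Dusp5 for Myc (both 0.99). Arc ran closest to the chaperone genes Dnajb1 (0.99) and Hsp90aa1 (0.98), and Srf to Tubb6 and Hsp90ab1 (both 0.94). For Nab2 the closest were Map3k14 (0.95) and the processed pseudogene Gm15542 (0.93), and for Egr4 the processed pseudogenes Gm12715 and Gm12346 (both 0.94), whose reads may be shared with their parent genes. Nab1 had the lowest of these values, 0.89 with Anapc10 and 0.88 with Copb1. The libraries share the IR contrast, so any gene that moves with IR scores high, and the values carry no test.

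Markers of other cell types were summed in the same libraries. Of the lists of cells that could respond or contaminate, the summed FPKM of 10 endothelial markers was 440 to 528 in C57-non-IR, 316 to 546 in C57-IR, 311 to 460 in Slit2-non-IR and 314 to 524 in Slit2-IR hearts, overlapping in both genotypes. That of 9 macrophage markers was 199.9 to 452 over all libraries and that of 9 neutrophil markers at most 1.46, with Ly6g at 0 in every library. That of 9 fibroblast markers was 621 to 876 and 630 to 1046 in C57BL/6J hearts without and with IR, and 711 to 1008 and 1018 to 1081 in Slit2-Tg hearts, where the groups did not overlap. Gsn made up most of that sum, at 483 to 716 and 721 to 784 FPKM in Slit2-Tg hearts without and with IR. In those hearts Col1a1, Col1a2, Col3a1 and Tcf21 were also higher after IR without overlap. Lum and Pdgfra were lower without overlap, and Dcn and Dpt overlapped. The 7 red blood cell genes summed to 8.35 to 16.3 FPKM in C57-non-IR and 1.47 to 6.79 in C57-IR hearts. The 6 lung epithelium genes, nearly all of the sum being Hopx, which heart muscle also expresses, summed to 79.3 to 100.4 and 107.6 to 123 FPKM in C57BL/6J and 77.5 to 101.6 and 107.5 to 131 in Slit2-Tg hearts, with no overlap in either genotype. The ventricular markers were also separate in Slit2-Tg hearts, at 24408 to 27298 without and 27629 to 28968 after IR. Smooth muscle markers (189 to 369), skeletal muscle markers (474 to 854), adipocyte markers (0 to 17.3), lymphocyte markers (0.344 to 0.688) and mesothelium markers (0.844 to 5.16) overlapped between IR and non-IR hearts of each genotype. The part of these shifts in the results above was not tested.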

How the data were processed

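RNA of 12 hearts, 3 in each of 4 groups, was sequenced (NEBNext libraries, Illumina). Whether a heart had IR was read from the second letter of each sample title, matched to the 4 groups of the study's methods. The authors deposited FPKM per gene in 4 tables, with HISAT2 and mm10 named in the submitters' processing notes; versions and the counter are not given in the sources used here. All per-library columns could be assigned. The deposited FPKM were whole multiples of 1 read for 100% of values (tolerance 0.02 reads), which gave depth and read numbers; 1 read of Egr4 is a large step, so depth limits that gene most.

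FPKM were taken to log2 after adding a pseudocount of 1. A gene was tested if 3 or more libraries reached the FPKM that 10 reads give at median depth and all libraries together held 15 reads, which left 15240 genes. The 4 groups were fitted together with limma-trend (limma 3.58.1, R 4.3.3), with Benjamini-Hochberg adjustment over all tested genes and a threshold of 0.05. Single values were also tested by two-sided exact permutation. Python 3.11.15, pandas 2.3.3, SciPy 1.17.1 and matplotlib 3.10.9 were used otherwise, and the fit was tested on simulated data. Whether same-numbered samples deviated together was checked. Correlations of deviations from the group means were 0.291, 0.294 and 0.143 between Slit2-IR and Slit2-non-IR and 0.285, 0.154 and 0.362 between Slit2-IR and C57-IR. Between C57-IR and C57-non-IR they were 0.295, 0.126 and 0.0833, and for the pair of non-IR groups 0.324, 0.0377 and 0.105. The numbers were treated as possible pairs where every value was over 0.1, which held in the first 2 of these comparisons and not in the last 2. Hearts of different numbers were not compared in this check, so it cannot show that the samples were paired. The labels describe them as independent. The main fit, with its SE, intervals and adjusted p, used no pairing. Pairing entered only through the replicate block and the permutation within Slit2-Tg pairs.

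The 9 genes and all lists were chosen with earlier results of these data known. Named from each list were the genes past the threshold, at most 6 by p, and the 2 with the highest level; named as alike were the 2 best correlated genes. Some genes that these rules would name are not reported here. Alternatives were another pseudocount, filter, scaling, tool and variance prior, a fit of only the groups compared, the replicate block, and each library left out; a permutation within Slit2-Tg pairs was added after the data were seen.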

Additional observations from a re-analysis of the deposited data

How the results depend on the processing

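With 3 hearts a group and the spread of the IR hearts, counts within a genotype rest on few genes near the threshold. The 2 calls in C57BL/6J hearts became 0 with no filter beyond 1 read, with scaling to total reads, with limma-voom and in a fit of only the groups compared, and 0 to 2 when 1 library was left out. The 2 calls in Slit2-Tg hearts became 0 with no filter and in a fit of only the groups compared, and 0 to 4 when 1 library was left out, the 4 including Egr4. The 6 calls for the mean IR effect include Egr4, which is given above only as a description. They became 3 with no filter, where more genes were tested, and 3 to 8 when 1 library was left out. The fit of only the groups compared uses fewer samples; the cause of the other shifts was not tested. With the replicate block the counts were 2, 3 and 8 of the 9 genes, the 8 including Egr4. Over all genes they were 174, 202 and 773 where the fit without the block called 70, 80 and 532. The block changed no other call of the 9. Over all genes it called 2 in place of 6 between the genotypes without IR and 9 in place of 7 after IR. The Slit2-Tg comparisons and the interaction called 0 of the 9 under every alternative run. Scaling to total reads turned the sign of Nab1 for IR in Slit2-Tg hearts (-0.0116), of Myc for the genotypes without IR (0.0138) and of Nab1 after IR (0.0344).

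Leaving out 1 library also turned the sign of values that were not called. For IR in Slit2-Tg hearts, Nab1 ranged from -0.00947 to 0.13. For the genotypes without IR, Egr1 ranged from -0.28 to 0.30, Egr2 from -0.36 to 0.29, Egr3 from -0.50 to 0.11, Nab1 from -0.0391 to 0.12, Nab2 from -0.11 to 0.0796, Srf from -0.19 to 0.0436, Arc from -0.26 to 0.0734 and Myc from -0.26 to 0.30. After IR, Egr1 ranged from -0.0688 to 0.48, Egr2 from -0.0836 to 0.52, Egr3 from -0.54 to 0.15, Nab1 from -0.10 to 0.0441 and Myc from -0.22 to 0.59. For the interaction, Egr1 ranged from -0.15 to 0.56, Egr2 from -0.13 to 0.60, Egr3 from -0.29 to 0.41, Nab1 from -0.15 to 0.0115 and Myc from -0.21 to 0.61. Egr4 was not tested where 10 reads were required in every library.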
